A study of Mus musculus with 16 samples.

Results

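The genes described here make and use microRNAs (miRNAs). They are 10 genes of the miRNA processing and silencing machinery, namely Drosha, Dgcr8, Xpo5, Dicer1 and Tarbp2 on the processing side and Ago1, Ago2, Tnrc6a, Tnrc6b and Tnrc6c on the silencing side. The members were taken by name, with Eif2c1, Eif2c2 and Rnasen accepted as older names of Ago1, Ago2 and Drosha, and the name was matched to the transcript accession of the probe for 13 of 15 probes. The other 2, both of Ago2, were taken by the symbol the array gives. They are measured by 15 of the 55681 probes of the array and make up 10 of the 18250 genes tested. All 15 probes were well above background on all 16 arrays, so that none of the 10 members was lost to the filter on dim probes.

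The cells were P19, a mouse embryonal carcinoma line that can be turned into neurons and that serves as a stem cell model. They were transfected with a control, with a mimic of the miRNA let-7a, with siSfpq (siRNAs against Sfpq, an RNA-binding protein of the nucleus), or with the mimic and siSfpq together, the last written let-7a + siSfpq. Per the study's methods, the dose was 24 nM and total RNA was taken after 48 h. The siRNAs are a commercial pool, and 1 cell line was used. Of the 4 arrays per condition, arrays 1 and 2 differed by as little as spots of 1 probe on 1 array and were therefore merged into 1 sample by their mean, giving 3 samples in each condition. Nothing in the labels says whether these came from separate cultures, and the p values then measure only the spread between these samples.

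In the animal miRNA pathway, Drosha and its RNA-binding partner Dgcr8 cut the primary transcript in the nucleus, and Xpo5 carries the resulting hairpin to the cytoplasm. Dicer1 cuts the hairpin to a short duplex with the help of Tarbp2, and 1 strand of it is loaded into an argonaute protein. The argonaute finds target mRNAs by the seed of the miRNA, and the Tnrc6 (GW182) proteins bound to it recruit the deadenylases that shorten the poly(A) tail of the target. A mimic such as the one used here is loaded into argonautes without needing Drosha or Dicer1. Dicer1 itself has been described as a target of let-7.

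The mature let-7a sequence is shown because it is the molecule that was added, and 3 relatives from mouse RefSeq (GRCm38.p6) because all 10 mature let-7 and miR-98 sequences in that table carry the same seed. Capitals mark the seed, bases 2 to 8 from the 5′ end.
mmu-let-7a-5p: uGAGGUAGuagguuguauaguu
mmu-let-7b-5p: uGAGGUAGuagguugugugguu
mmu-let-7g-5p: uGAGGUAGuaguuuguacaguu
mmu-miR-98-5p: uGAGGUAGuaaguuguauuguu
The cDNA form of the site complementary to this seed is CTACCTC. It was found, on the sense strand, in 0 of the 15 probe sequences of the members and in 204 of all 55681 probes (0.366%). A missing match in a probe says nothing about sites elsewhere in the mRNA.

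On each array 33733 to 38464 of the 59305 spots stood well above background and none was saturated, and the number of arrays limits the precision. The median per condition was lowest in siSfpq (34394, with 36485 on array 3 and at most 34540 on the other arrays) and 35991 in control, 37660 in let-7a and 36829 in let-7a + siSfpq. Its part in the results was not tested. Sfpq, the gene targeted by siSfpq, was at log2 levels of 12.07, 11.98 and 11.99 in control (arrays 1 and 2, array 3, array 4) and at 10.56, 11.47 and 10.61 in siSfpq. Its change was -1.13 (standard error, SE, 0.19, limma adjusted p = 0.00746) and was -1.51, -0.51 and -1.37 within the replicate numbers, so that array 3 of siSfpq carried the smallest fall of the targeted gene. Without replicate 3 the change of Sfpq was -1.44, and the members upon siSfpq are therefore also given without it. Fits without replicate 3 hold 2 samples per condition, the mean of arrays 1 and 2 and array 4. Replicate 3 was picked out from these data, and the p values of such fits measure only the spread between the 2 samples left. Of the marker genes looked at, all 6 of pluripotent cells (Pou5f1, Nanog, Sox2, Lin28a, Dnmt3b, Tdgf1) were well above background on all control arrays, as were 4 of 6 of neurons, 2 of 3 of mesendoderm and 3 of 3 of fibroblasts, and Mixl1 was above it on no control array. The mean log2 level over the 6 neuronal markers lay between 8.31 and 8.88 in control, 9.57 and 10.37 in let-7a, 7.62 and 7.66 in siSfpq and 8.83 and 9.10 in let-7a + siSfpq. Of them 4 were called higher upon let-7a and 4 lower upon siSfpq, against 6.96% and 13.6% of all genes, and 0 in let-7a + siSfpq. Stmn2 did not rise upon let-7a (14.63 in control, 14.60 in let-7a), and Neurod1 was low (3.88 in control, 2.24 in siSfpq). Upon let-7a 2 of 6 pluripotent and 1 of 2 mesendoderm markers were called lower and 1 of 3 fibroblast markers higher. Upon siSfpq 1 pluripotent marker was called lower and 1 mesendoderm marker higher. The mean over the 2 mesendoderm markers tested was 8.68 to 8.71 in control, 7.36 to 7.43 in let-7a, 9.80 to 9.97 in siSfpq and 8.21 to 9.12 in let-7a + siSfpq, that over the pluripotent markers 12.28 to 12.43, 11.78 to 12.16, 12.19 to 12.41 and 12.02 to 12.11, and that over the fibroblast markers 8.34 to 8.47, 8.71 to 8.84, 8.24 to 8.42 and 8.53 to 8.81. Levels of these markers moved with the conditions, and their part in the results below was not tested. Fewer cells of a type and less RNA per cell cannot be told apart in these samples, and neither can the condition and the column of the slide, since each condition sat in its own column on both slides.

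Upon let-7a, the mRNAs of Dicer1 and Tarbp2, the enzyme and the partner of the last cut, fell to 72.7% and 71.3% of control. The levels of Drosha and Dgcr8, which act first, were 99.0% and 98.8% of control and did not pass the test. In total 2 of the 10 members were called, both lower (limma adjusted p under 0.05), against 6.96% of all genes called in this comparison. The median log2 change of the members was -0.06, beside -0.04 over all genes.

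Dicer1 stood at log2 levels of 11.89, 11.74 and 11.86 in control and at 11.36, 11.29 and 11.45 in let-7a. Every let-7a sample was below every control sample. Its log2 change was -0.46 (SE 0.086, limma adjusted p = 0.00855), with differences of -0.53, -0.45 and -0.41 within the replicate numbers. Dicer1 is read by 1 probe, at chr12:105926064-105926123 on the minus strand (mm9), which starts at position 9679 of the transcript the array names. No annotation of that build was used here, and coding and untranslated parts are not given for any probe.

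Tarbp2, the double-stranded RNA-binding partner of Dicer1, stood at 14.52, 14.17 and 14.51 in control and at 13.96, 13.84 and 13.94 in let-7a. The groups did not overlap, and array 3 was the lowest in both. The log2 change was -0.49 (SE 0.11, limma adjusted p = 0.0206), with differences of -0.56, -0.33 and -0.57. Its probe lies at chr15:102353974-102354033 on the plus strand (mm9), position 1656 of the transcript.

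The genes of the first steps did not pass the test upon let-7a. Drosha, the nuclear endonuclease, was at 13.12, 13.05 and 13.11 in control and at 13.12, 13.02 and 13.11 in let-7a. Its log2 change was -0.01 with a 95% confidence interval of -0.19 to 0.16, the narrowest among the members. Dgcr8 changed by -0.02 (interval -0.50 to 0.47, limma adjusted p = 0.982), an interval wide enough to hold the change seen in Dicer1. Xpo5, the nuclear export receptor of the hairpin, changed by -0.11 (interval -0.40 to 0.18, limma adjusted p = 0.733).

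Among the silencing genes none passed the test upon let-7a. Ago1 was at 8.87, 9.09 and 8.48 in control and at 8.51, 8.36 and 8.22 in let-7a, so that 1 let-7a sample lay above the lowest control. Its log2 change of -0.45 was as large as that of Dicer1 but had a standard error of 0.17 (limma adjusted p = 0.159). Ago2, the argonaute able to cut its target, changed by -0.17 (SE 0.13, limma adjusted p = 0.527). The 3 Tnrc6 genes had log2 changes above 0, of 0.07 for Tnrc6a, 0.26 for Tnrc6b and 0.29 for Tnrc6c, with limma adjusted p of 0.813, 0.303 and 0.425.

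Same-numbered samples deviated together, and with the replicate numbers as a block 3 members were called, all lower, against 21.8% of all genes. The added member was Ago1 (limma adjusted p = 0.0349 in that fit). Without replicate 3, 4 members were called against 30.1% of all genes, namely Dicer1 (-0.47), Tarbp2 (-0.56), Tnrc6b (0.35, limma adjusted p = 0.0196) and Tnrc6c (0.29, limma adjusted p = 0.00695). Without replicate 4, and without replicates 1 and 2, no member was called with limma (3 and 2 at an unadjusted p under 0.05), where 2 and 3 of all 18250 genes were, and the log2 change of Dicer1 was -0.49 and -0.43. In these fits 1530 and 1576 of all genes had an unadjusted p under 0.05.

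**Figure D1:**
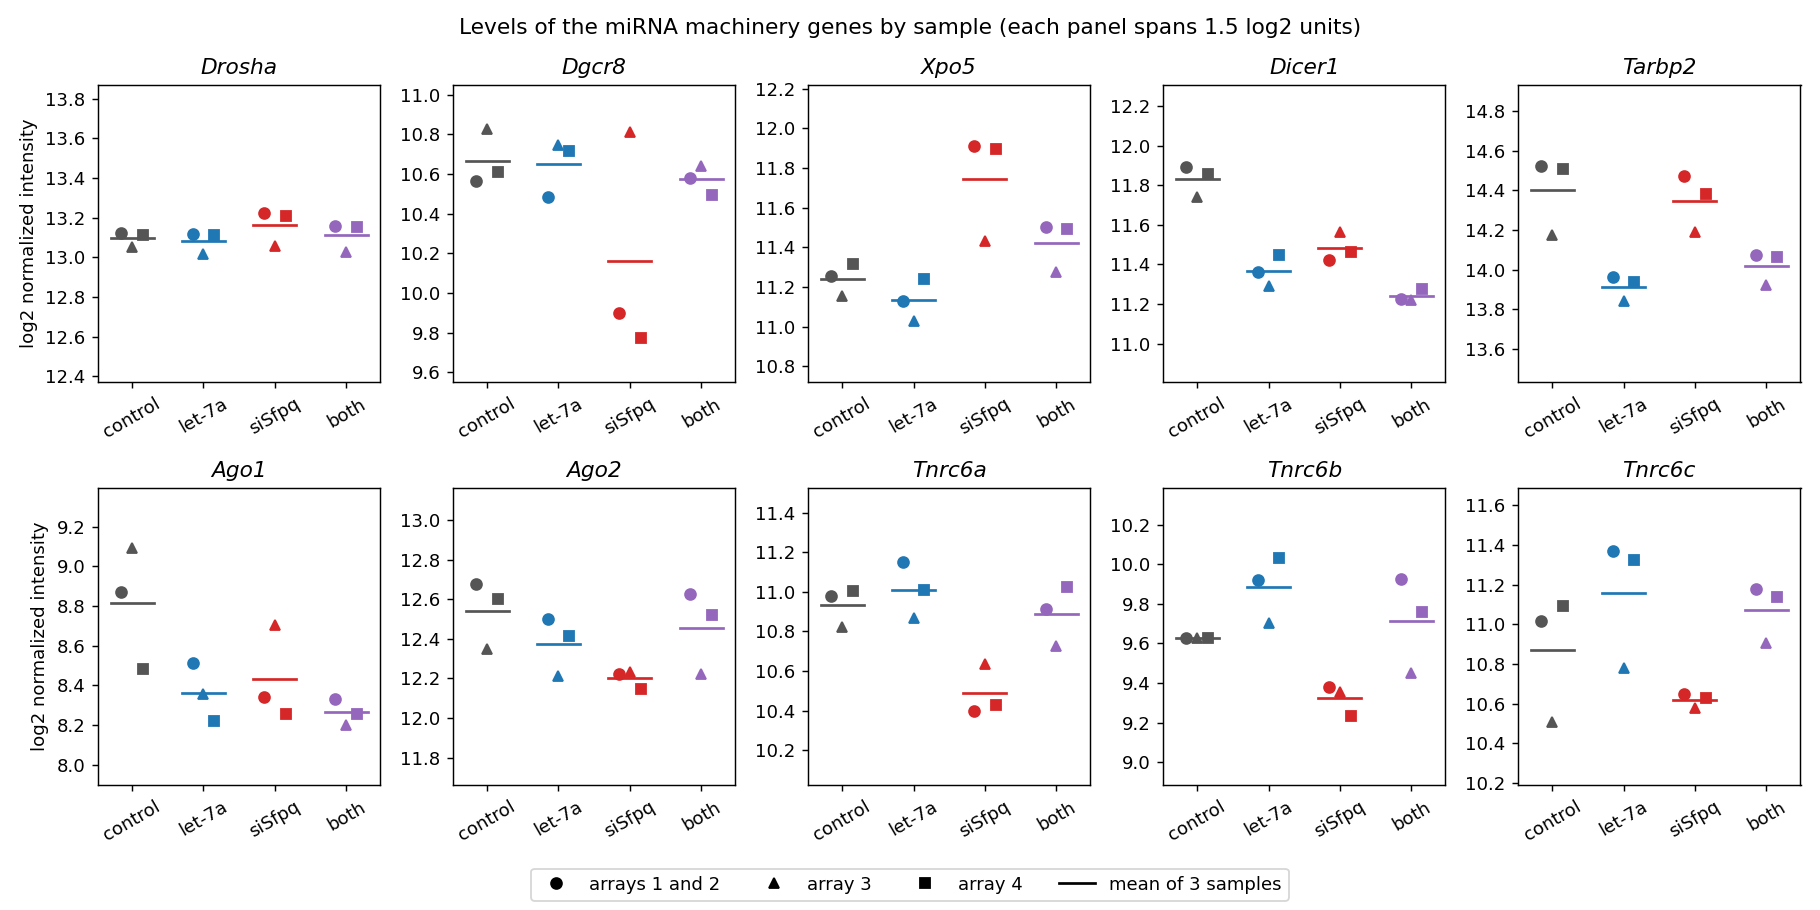
Log2 normalized intensity of the 10 members (y axis, 1.5 log2 units in each panel) in control, let-7a, siSfpq and let-7a + siSfpq ("both"), with circles for the mean of arrays 1 and 2, triangles for array 3, squares for array 4 and lines for the mean of the 3 samples. Dicer1 in let-7a lies between 11.29 and 11.45, below all control samples (11.74 to 11.89), while all samples of Drosha lie between 13.02 and 13.22.

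Upon siSfpq, Xpo5 rose to 142.0% of control, and Tnrc6a and Dicer1 fell to 73.4% and 78.7%. These were 3 of 10 members called, 1 higher and 2 lower, against 13.6% of all genes called. The members had a median log2 change of -0.32, beside 0.01 over all genes, with 8 of 10 below 0.

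Xpo5 was at 11.25, 11.16 and 11.32 in control and at 11.91, 11.43 and 11.90 in siSfpq. All siSfpq samples lay above all control samples, with array 3 the closest. The log2 change was 0.50 (SE 0.13, limma adjusted p = 0.0311), with differences of 0.66, 0.28 and 0.58. Its probe is at chr17:46378755-46378814 on the plus strand (mm9), position 3458 of the transcript. With no filter on dim probes, which adds genes to the adjustment, the limma adjusted p was 0.0525.

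Tnrc6a, a scaffold of the silencing complex, was at 10.98, 10.82 and 11.00 in control and at 10.40, 10.64 and 10.43 in siSfpq. The groups did not overlap. The log2 change was -0.45 (SE 0.12, limma adjusted p = 0.0309), with differences of -0.58, -0.18 and -0.57. Its probe lies at chr7:130338627-130338686 on the plus strand (mm9), position 8295 of the transcript. Its relatives Tnrc6b and Tnrc6c had log2 changes of -0.30 (limma adjusted p = 0.147) and -0.26 (limma adjusted p = 0.377).

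Dicer1 was at 11.42, 11.56 and 11.47 in siSfpq, below all control samples. The log2 change was -0.35 (SE 0.086, limma adjusted p = 0.0253), with differences of -0.47, -0.18 and -0.39. Scaled to the 75th percentile of each array instead, it was -0.26 (limma adjusted p = 0.0749). Tarbp2, its partner, changed by -0.05 (interval -0.29 to 0.18, limma adjusted p = 0.793), and by 0.11 with that scaling, so that its direction is not settled.

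Dgcr8 shows how far replicate 3 stands from the others upon siSfpq. It was at 10.56, 10.83 and 10.61 in control and at 9.90, 10.81 and 9.77 in siSfpq. The siSfpq samples of arrays 1 and 2 and of array 4 lay below all controls, whereas array 3 lay at the level of its control, with a difference of -0.01. Over all samples the log2 change was -0.51 (SE 0.22, limma adjusted p = 0.145), and without replicate 3 it was -0.75 (SE 0.090, limma adjusted p = 3.94e-04). The latter fit holds only 2 samples per condition and leaves out the sample that differed.

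Ago2 was at 12.68, 12.35 and 12.60 in control and at 12.22, 12.23 and 12.14 in siSfpq. All siSfpq samples were below all controls, but the log2 change of -0.34 (SE 0.13) did not pass the test (limma adjusted p = 0.0898). Ago1 changed by -0.38 (SE 0.17, limma adjusted p = 0.161) and Drosha by 0.07 (interval -0.11 to 0.24, limma adjusted p = 0.624).

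Without replicate 3, 7 of 10 members were called upon siSfpq against 49.2% of all genes, 6 of them lower. These were Ago2 (-0.46), Dgcr8 (-0.75), Dicer1 (-0.43), Tnrc6a (-0.58), Tnrc6b (-0.32) and Tnrc6c (-0.42), with Xpo5 higher (0.62, limma adjusted p = 1.33e-04). The other 3 were Ago1 (-0.38), Tarbp2 (-0.09) and Drosha (0.10), with limma adjusted p between 0.0718 and 0.224. The blocked fit also called 7, against 37.8% of all genes, with Ago1 (limma adjusted p = 0.0435) in place of Tnrc6c. In that fit the limma adjusted p was 0.0125 for Ago2, 0.0400 for Dgcr8 and 0.0497 for Tnrc6b. When control and siSfpq alone entered the fit, no member was called with limma (5 at an unadjusted p under 0.05), and 0 of all 18250 genes were. Without replicate 4 (1 member at an unadjusted p under 0.05) and without replicates 1 and 2 (0 members) limma likewise called 0 members and 0 of all genes. In these 3 fits 4718, 1707 and 1852 of all genes had an unadjusted p under 0.05.

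**Figure D2:**
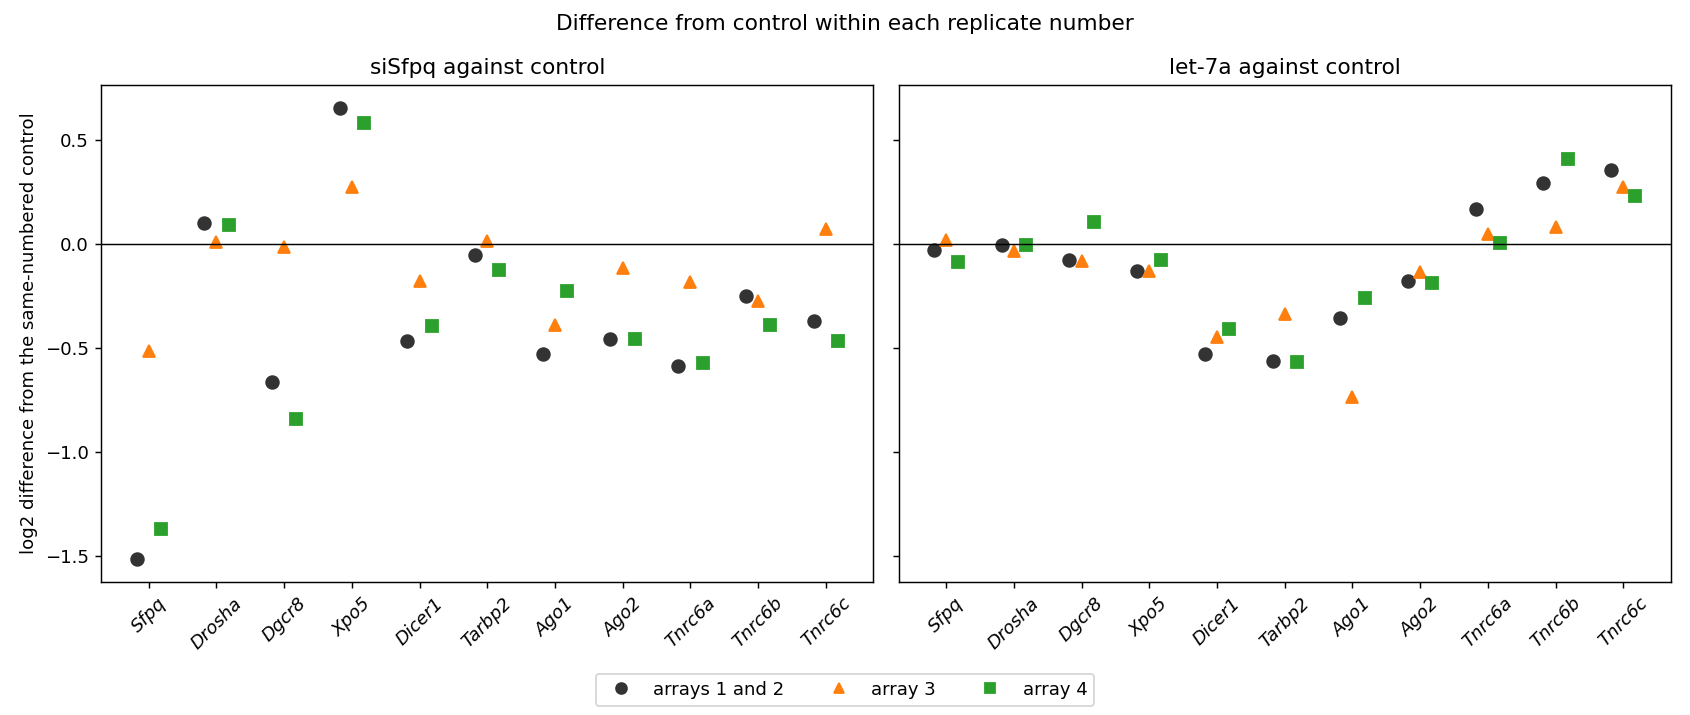
Log2 difference from the control of the same replicate number (y axis) for Sfpq and the 10 members upon siSfpq (left) and let-7a (right), with circles for arrays 1 and 2, triangles for array 3 and squares for array 4. Upon siSfpq array 3 lies closest to 0 for Sfpq (-0.51 against -1.51 and -1.37) and for Dgcr8, Xpo5, Dicer1, Ago2 and Tnrc6a, whereas upon let-7a the 3 differences of Dicer1 lie between -0.53 and -0.41.

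In cells given both molecules, Sfpq itself was at 65.7% of control and did not pass the test (log2 change -0.61, SE 0.19, limma adjusted p = 0.183, and -0.67 with 0.00106 without replicate 3). All its samples lay below all controls, with differences of -0.76, -0.48 and -0.58 within the replicate numbers. The fall of Sfpq was called in 3 of 16 alternatives. Dicer1 fell to 66.5% of control and was the 1 member called, against 1.52% of all genes. It was at 11.23, 11.22 and 11.28 in let-7a + siSfpq, below every sample of the other 3 conditions, and the SD of these 3 values was 0.030. The log2 change was -0.59 (SE 0.086, limma adjusted p = 0.00668). Ordered by mean level, Dicer1 went from let-7a + siSfpq through let-7a and siSfpq to control, and the let-7a and siSfpq samples overlapped each other.

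Tarbp2 was at 14.07, 13.92 and 14.07 in these cells, below all controls, with a log2 change of -0.38 (SE 0.11, limma adjusted p = 0.131). Ago1 was at 8.33, 8.20 and 8.26, also below all controls, and changed by -0.55 (SE 0.17, limma adjusted p = 0.181). Both were called in the blocked fit (limma adjusted p = 0.00489 and 0.0311), where 3 members were called against 8.15% of all genes. The other 7 members had log2 changes between -0.09 and 0.20. Without replicate 3, 3 members were called against 18.2% of all genes, namely Dicer1 (-0.62), Tarbp2 (-0.45) and Xpo5 (0.21, limma adjusted p = 0.0447). Without replicate 4, and without replicates 1 and 2, none was called with limma (2 at an unadjusted p under 0.05 in each), and 0 of all genes were. In these fits 747 and 761 of all genes had such an unadjusted p.

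**Figure D3:**
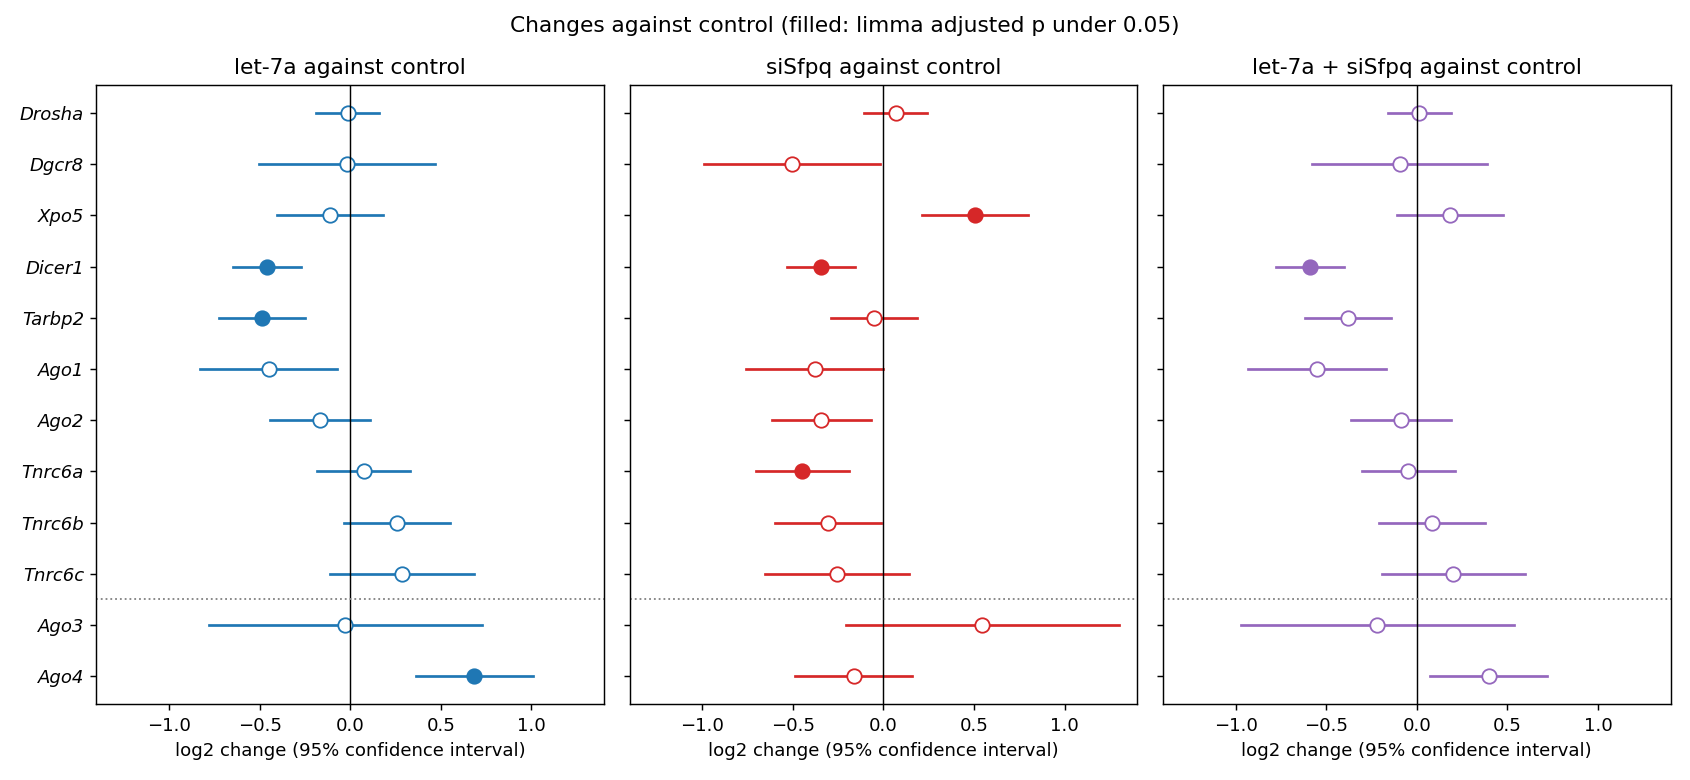
Log2 change against control (x axis) of the 10 members and, under the dotted line, Ago3 and Ago4, for let-7a, siSfpq and let-7a + siSfpq, as circles with 95% confidence intervals from limma over 3 samples per condition. Filled circles mark a limma adjusted p under 0.05, and Dicer1 is the gene filled in all 3 panels, at -0.46, -0.35 and -0.59.

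The comparisons of the double transfection with each single one ask what siSfpq adds to let-7a and what let-7a adds to siSfpq. The comparisons above share the control samples, and those here share the let-7a + siSfpq samples. Against let-7a no member was called with limma (0 at an unadjusted p under 0.05), where 3.13% of all genes were. Such an unadjusted p was found for 3012 of all 18250 genes. Dicer1 was lower than in every let-7a sample, with a log2 change of -0.13 (SE 0.086, limma adjusted p = 0.536). Xpo5 had the highest log2 change, 0.29 (SE 0.13, limma adjusted p = 0.304), and all 3 let-7a + siSfpq samples (11.50, 11.27 and 11.49) lay above all let-7a samples (11.13, 11.03 and 11.24). The blocked fit called it (limma adjusted p = 0.0452), the 1 member called against 13.2% of all genes. Without replicate 3, Xpo5 and Tnrc6c (-0.19, limma adjusted p = 0.0413) were called, against 26.7% of all genes.

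Against siSfpq no member was called with limma either (6 at an unadjusted p under 0.05), where 10.3% of all genes were. An unadjusted p under 0.05 was found for 5124 of all 18250 genes. All let-7a + siSfpq samples lay above all siSfpq samples for each of the 3 Tnrc6 genes, none of them called in this fit. The share of all genes separated in this way is not given, so the separation only describes the values. Tnrc6a was at 10.91, 10.72 and 11.03 against 10.40, 10.64 and 10.43, a log2 change of 0.40 (SE 0.12, limma adjusted p = 0.0521). Tnrc6b was at 9.92, 9.45 and 9.76 against 9.38, 9.35 and 9.24, a change of 0.39 (limma adjusted p = 0.0844). Tnrc6c was at 11.18, 10.91 and 11.14 against 10.65, 10.58 and 10.63, a change of 0.46 (limma adjusted p = 0.125).

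Tarbp2 and Dicer1 were lower than in siSfpq, again with no overlap, with log2 changes of -0.33 and -0.24 (limma adjusted p of 0.0757 and 0.0901). In the blocked fit, 7 members were called against 33.4% of all genes. These were the 3 Tnrc6 genes (limma adjusted p between 0.0137 and 0.0237) and Ago2 (0.0404), which were higher, and Dicer1 (0.0291), Tarbp2 (0.00514) and Xpo5 (0.0176), which were lower. Without replicate 3, 8 were called against 47.1% of all genes, those 7 and Dgcr8. Sfpq itself was higher in let-7a + siSfpq (11.31, 11.50 and 11.40) than in siSfpq (10.56, 11.47 and 10.61) on arrays 1 and 2 and on array 4, by 0.76 and 0.79, and on array 3 by 0.03 (limma adjusted p = 0.100 over the 3 samples, and 0.0382 in the blocked fit). Its part in the differences between these conditions was not tested.

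The interaction asks whether the effect of let-7a with siSfpq differs from that without it. No member was called with limma (1 at an unadjusted p under 0.05, Ago2), and 0% of all genes were. Such an unadjusted p was found for 1154 of all 18250 genes. The interaction of Ago2 was 0.42 (SE 0.18, limma adjusted p = 0.779), with values of 0.58, 0.12 and 0.56 within the replicate numbers. That of Dicer1 was 0.22 (interval -0.05 to 0.48). With the replicate as a block 0 members and 0.0219% of all genes were called. Without replicate 3, where Sfpq, the targeted gene, itself had an interaction of 0.83 (limma adjusted p = 0.00175), 5 members were called against 22.3% of all genes. These were Dgcr8 (0.69), Ago2 (0.57), Tnrc6a (0.47), Dicer1 (0.27) and Xpo5 (-0.30).

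Some members are read by several probes, which did not always move alike. The Ago1 probes, at chr4:126117202-126117261 and chr4:126112644-126112703 on the minus strand (mm9; positions 2289 and 6617 of the transcript), changed by -0.58 and -0.32 upon let-7a and by -0.31 and -0.45 upon siSfpq. None of these passed the test over all probes. The standard error of the first was 0.28, against 0.15 for the second. The Drosha probes changed by less than their standard errors upon let-7a (-0.00 and -0.03).

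The 4 Ago2 probes lie on the minus strand of chromosome 15 (mm9), from position 3163 to position 13552 of the transcripts the array names. Upon let-7a the log2 changes along the transcript were -0.15, 0.20, -0.37 and -0.35, none past the threshold over all probes (limma adjusted p of 0.787, 0.582, 0.0797 and 0.175). Upon siSfpq they were -0.19, -0.21, -0.54 and -0.43. The probe at chr15:72928888-72928947 (position 11031) passed upon siSfpq (SE 0.11, limma adjusted p = 0.0142), and the others had limma adjusted p between 0.0558 and 0.574. The Ago2 values above are means over these 4 probes, and with the brightest probe alone the siSfpq change was -0.54 and was called.

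**Figure D4:**
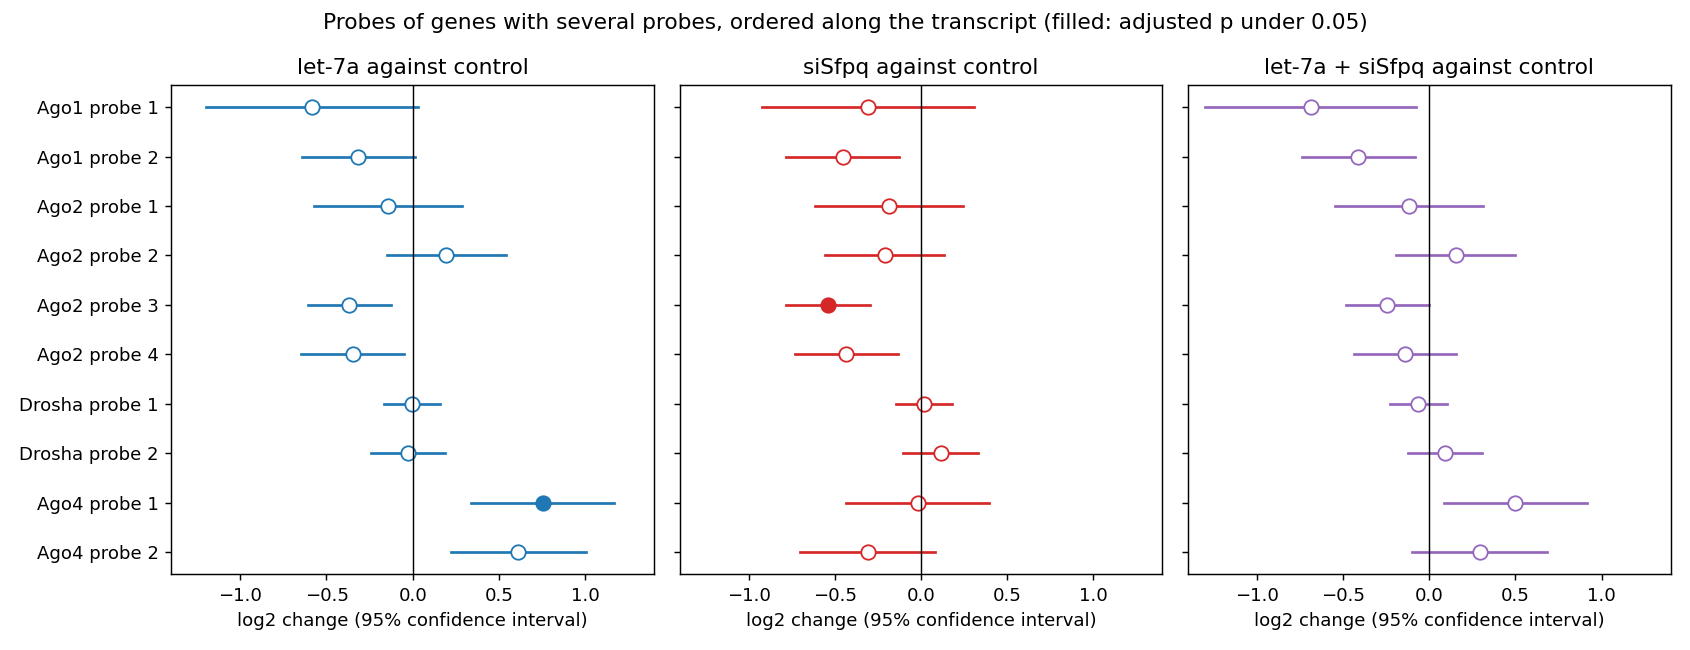
Log2 change against control (x axis, 95% confidence intervals) of each probe of Ago1, Ago2, Drosha and Ago4, ordered from the start to the end of the transcript, for let-7a, siSfpq and let-7a + siSfpq, with filled circles for a limma adjusted p under 0.05 over all probes. Ago2 probe 3 is filled upon siSfpq at -0.54 and Ago4 probe 1 upon let-7a at 0.75, while the second Ago2 probe lies at 0.20 upon let-7a where the other 3 lie below 0.

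The remaining argonautes are Ago3 and Ago4. Ago4 rose upon let-7a, from 7.72, 7.58 and 7.70 in control to 8.61, 8.12 and 8.32, with no overlap. The log2 change was 0.68 (SE 0.15, limma adjusted p = 0.0176), and its probes changed by 0.75 and 0.61. In let-7a + siSfpq it was at 8.19, 7.91 and 8.07 (0.40 against control, limma adjusted p of 0.282, and of 0.0354 in the blocked fit). That was 0.56 above siSfpq (limma adjusted p = 0.0372). Upon siSfpq its change was -0.16 (limma adjusted p = 0.498). Ago3 had the widest spread of the family, with changes of -0.03 upon let-7a and 0.54 upon siSfpq, standard errors of 0.34 and no call. Its level upon siSfpq was 6.30, 5.19 and 6.06, against 5.80, 5.05 and 5.07 in control, and the blocked fit called it (limma adjusted p = 0.0371).

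Around the members, 76 other genes of the pathway were listed in 7 groups, all of which were tested. Upon let-7a 3 rose and 2 fell (6.58% of the list, against 6.96% of all genes), with a median log2 change of -0.12 beside -0.04 over all genes. Upon siSfpq 3 rose and 3 fell (7.89%, against 13.6% of all genes), with a median of 0.07 (all genes 0.01). In let-7a + siSfpq 1 rose and 1 fell (2.63%, against 1.52% of all genes), with a median of -0.08 (all genes -0.01). The split into higher and lower calls changed with the scaling and the filter. Scaled to the 75th percentile, 2 rose and 3 fell upon let-7a and 5 rose and 1 fell upon siSfpq, and with no filter on dim probes 1 rose and 3 fell upon siSfpq. Without replicate 4, and without replicates 1 and 2, where at most 3 of all genes were called, none of the 76 was called with limma in these comparisons (2 to 9 at an unadjusted p under 0.05). Of all 18250 genes, 747 to 1852 had such an unadjusted p in these fits. Without replicate 3, 27, 38 and 14 were called upon let-7a, siSfpq and both (30.1%, 49.2% and 18.2% of all genes), and the blocked fit called 22, 28 and 8 (21.8%, 37.8% and 8.15% of all genes).

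The group that controls let-7 processing held both falls upon let-7a. Lin28a, which binds the let-7 precursor and blocks its cutting and is a known let-7 target, went from 14.40, 14.34 and 14.42 in control to 13.43, 13.69 and 13.71. The groups did not overlap, and the log2 change was -0.77 (SE 0.11, limma adjusted p = 0.00245). In let-7a + siSfpq it fell by 0.57 (limma adjusted p = 0.0351), a call kept in 9 of 16 alternatives, and upon siSfpq the change was 0.07 (limma adjusted p = 0.720). Trim71, a stem cell ubiquitin ligase and the classic let-7 target lin-41, fell by 0.57 upon let-7a (SE 0.13, limma adjusted p = 0.0274). Of the 7 genes of this group 5 had an unadjusted p under 0.05 upon let-7a, 4 with a change below 0 and Tut7 with one of 0.45 (limma adjusted p = 0.0792), where 3796 of all 18250 genes had such a p. The median of the group was -0.36.

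Of the genes acting downstream of the argonautes, Btg2, which stimulates deadenylation and is also a gene of the p53 response and of neural precursors, rose by 1.38 upon let-7a (SE 0.26, limma adjusted p = 0.00855). The same gene fell by 0.95 upon siSfpq (limma adjusted p = 0.0332), and by 1.22 without replicate 3. The siSfpq change of Btg2 was called in 10 of 16 alternatives and ranged from -1.22 to -0.67. Of the 18 deadenylation genes 2 were called upon siSfpq, against 13.6% of all genes. The other one was Cnot6, a catalytic subunit of the CCR4-NOT complex, which fell by 0.36 upon siSfpq (limma adjusted p = 0.0286; -0.45 without replicate 3; called in 11 of 16 alternatives). In the decapping group, upon siSfpq the helicase Ddx6 fell by 0.30 (limma adjusted p = 0.0302) and the decapping enzyme Dcp2 rose by 0.73 (limma adjusted p = 0.0435). Without replicate 3 these changes were -0.37 and 1.01. Ddx6 was called in 12 of 16 alternatives and Dcp2 in 11, and neither with scaling to the 75th percentile (limma adjusted p of 0.118 and 0.0794). Neither group had a call in let-7a + siSfpq against control.

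Among the partners of Dicer and RISC loading factors, the RNA helicase Mov10 rose by 0.90 upon siSfpq (limma adjusted p = 0.0159) and by 1.01 in let-7a + siSfpq (limma adjusted p = 0.0303). The chaperone Hsp90aa1, which helps load argonautes, rose by 0.59 upon siSfpq (limma adjusted p = 0.0129). Without replicate 3 the siSfpq changes of Mov10 and Hsp90aa1 were 1.19 and 0.74, and these genes were called in 13 and 12 of 16 alternatives. Rbm4, an RNA-binding protein of the regulator group, rose by 0.51 upon let-7a (limma adjusted p = 0.0276). None of the 11 other nuclear processing factors was called with limma upon let-7a, siSfpq or both (3, 2 and 2 at an unadjusted p under 0.05), where 6.96%, 13.6% and 1.52% of all genes were. Of all 18250 genes, 3796, 5643 and 2158 had such an unadjusted p. The blocked fit called 3, 2 and 1 of them, against 21.8%, 37.8% and 8.15% of all genes.

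**Figure D5:**
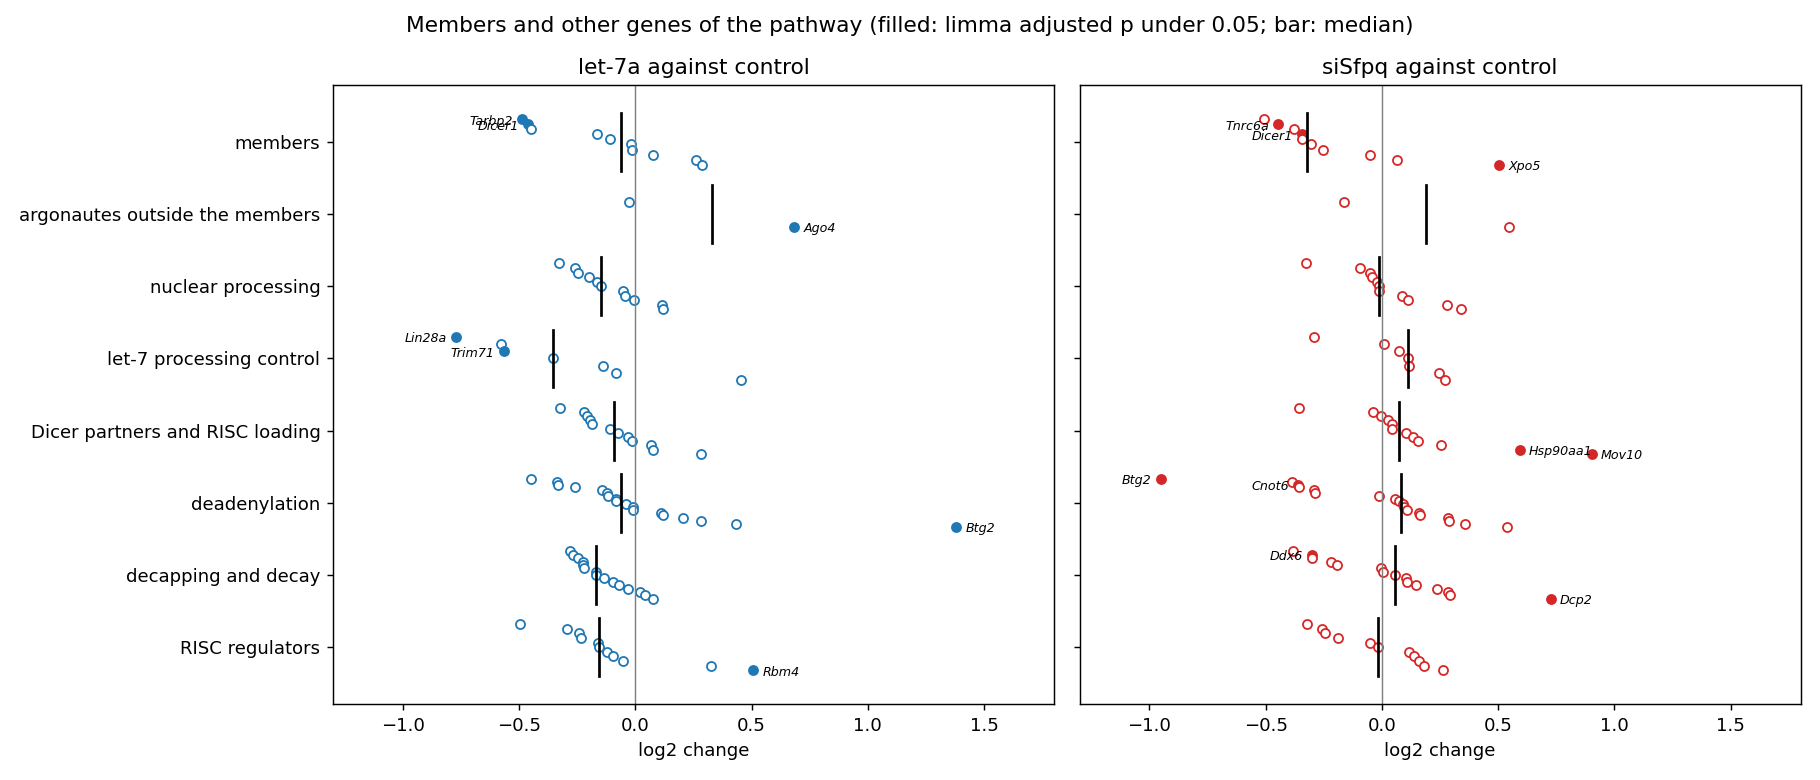
Log2 change against control (x axis) of each member and of the 76 other pathway genes by group, for let-7a (left) and siSfpq (right), with filled, named circles for a limma adjusted p under 0.05 and a bar for the median of each group. The median of the group controlling let-7 processing lies at -0.36 upon let-7a, and that of the members at -0.32 upon siSfpq.

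For each called member, the genes well above background on all arrays whose levels followed it most closely over the 12 samples were found by Pearson's r. The 12 samples fall into the 4 conditions, and the r values describe shared differences between conditions and arrays. Dicer1 was followed by Gm10099 (r = 0.937) and Prtg (r = 0.936), and Tarbp2 by Tkt (r = 0.972) and Fbn2 (r = 0.970). Xpo5 was followed by Atpsckmt (r = 0.986) and Slc66a1 (r = 0.982), and Tnrc6a by 4732460I02Rik (r = 0.992). Among the members themselves, r was 0.718 between Dicer1 and Tarbp2 and 0.848 between Tnrc6a and Tnrc6b, and it was -0.746 between Xpo5 and Tnrc6a and -0.853 between Xpo5 and Dgcr8.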

How the data were processed

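RNA of P19 cells was hybridized to 16 single-colour Agilent arrays (4 in each condition). Spot intensities as deposited came from Feature Extraction 10.7.3.1 and are background-subtracted in the processed column and not normalized between arrays. The authors also deposited log2 values, quantile normalized with limma, which follow log2 of the median spot intensity (r of at least 0.9995 on every array, medians of 6.23 to 6.24) and were used as an alternative. Probe coordinates are mm9 per the file headers.

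Processed intensities were taken to log2 and quantile normalized between arrays with limma 3.58.1 in R 4.3.3. Outlier spots were left out, and a probe was kept if well above background on all 4 arrays of a condition. Gene names came from RefSeq accessions where these matched, probes with no gene name were left out, and the probes of a gene were averaged. Arrays 1 and 2 differed by a median SD of 0.054 to 0.070 within a condition, beside 0.058 to 0.068 between spots of 1 probe and 0.11 to 0.38 between other arrays. Array 4 lay close to arrays 1 and 2 in every condition (0.11 to 0.15), whereas every pair with array 3 differed by 0.22 to 0.38. Arrays 1 and 2 were averaged, although the labels number them as 2 replicates and the methods name 3. One limma model with 4 means and an intensity trend was fitted to 12 samples, with two-sided tests and Benjamini-Hochberg adjustment over 18250 genes (24537 probes). With 3 samples against 3, exact permutation p values cannot go below 0.1, and none is given. Same-numbered samples deviated together (r of 0.313 to 0.707), and the numbers were therefore used as a block in an alternative fit. Each replicate number also sat in the same row of the same slide in every condition. Whether the shared deviations come from the samples or from that place cannot be told apart. On simulated data of this design, the let-7a comparison recovered 60% of 200 genes given a log2 change of 1 and called 4 unchanged ones. The simulated noise was independent between samples, without the shared deviations of same-numbered ones. The planted change was larger than any called change of a member, so the 60% does not carry over to the members. Tables were made in Python 3.11.15 with pandas 2.3.3 and numpy 2.4.6, and figures with matplotlib 3.10.9.

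Named are all members, Ago3, Ago4, Sfpq and Lin28a, the list genes called against control (at most 4 per comparison and direction) and the 2 genes most like each called member, of which 1 is not reported here. The members, lists and tests were chosen with earlier results of these data known. Alternatives were the scaling, the background correction (normexp, offset 50), the filter, the slide or replicate as a block, all arrays counted separately, each replicate left out, the brightest probe of a gene, the authors' values, no trend, and fits of the compared groups alone.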

Additional observations from a re-analysis of the deposited data

How the results depend on the processing

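Over 16 alternatives, no called change of the 82 single-gene results reversed. The 6 called changes of members kept their call in 79 of 96 runs, and the 14 called changes of other pathway genes and Sfpq in 172 of 224. Leaving out replicates gave 0 to 4 members called for let-7a against control, 0 to 7 for siSfpq, 0 to 3 for let-7a + siSfpq, 0 to 2 against let-7a, 0 to 8 against siSfpq and 0 to 5 for the interaction, and 0 to 27, 0 to 38 and 0 to 14 of the 76 pathway genes in the comparisons with control. The lowest counts came without replicate 4 and without replicates 1 and 2, the highest without replicate 3. Each of those fits holds 2 samples per condition. In this order of comparisons, the replicate block gave 3, 7, 3, 1, 7 and 0 members and 22, 28 and 8 pathway genes, and it changed no other call of a member. All 16 arrays counted separately gave 3, 7, 3, 0, 8 and 0 members and 21, 26 and 8 pathway genes, with arrays 1 and 2 counted as if independent. For siSfpq against control, 0 members and 0 pathway genes were called when only these groups entered the fit. Against siSfpq, scaling to the 75th percentile gave 3 members and the slide block 1. The slide block gave 9 pathway genes upon let-7a. Over all genes, in the same order of comparisons without the interaction, 1270, 2490, 278, 572 and 1875 were called, 3986, 6899, 1488, 2406 and 6094 with the replicate block, 3611, 6555, 1433, 2597 and 5916 with 16 arrays, 5492, 8983, 3327, 4867 and 8597 without replicate 3, and at most 3 without replicate 4 or without replicates 1 and 2. Interaction calls numbered 0, 4, 186 and 4063 in the first 4 of these fits, and 5 with no filter on dim probes. No filter gave 1493, 183, 305 and 1011 calls in the last 4 comparisons, and the compared groups alone gave 0 for siSfpq against control and 220 against siSfpq. For let-7a + siSfpq against control, the 75th percentile, no filter on dim probes, the authors' values and no trend each gave 1 pathway gene. Signs that turned were all of uncalled changes, between -0.17 and 0.08 in the reported fit. Upon let-7a, leaving out replicates moved Dgcr8 between -0.078 and 0.014 and Ago3 between -0.12 and 0.057. Upon siSfpq, Tarbp2 was at 0.11 with the 75th percentile. With the brightest probe, Drosha was at -0.063 and -0.060 in let-7a + siSfpq against control and against let-7a, and Ago1 at 0.044 against siSfpq. Tnrc6b in let-7a + siSfpq against control ran from -0.022 without replicates 1 and 2 to 0.21 without replicate 3. The causes of these differences were not tested.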
